A study of Mus musculus with 6 samples.

Results

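Granule exocytosis is the step by which a mast cell releases histamine, proteases and other stored mediators, and 36 genes of the machinery that carries it out were followed here in mouse bone marrow-derived mast cells. They were chosen by name: every array probe whose gene name equalled a member was inspected, 62 probes in all, and the brightest probe of each gene was used. All 36 were on the array, out of 29603 named genes. Their median difference lay near 0 in every comparison, so the account below is of which single genes moved.

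In outline, a secretory granule is brought to the plasma membrane by Rab GTPases and the synaptotagmin-like proteins that bind them, and is then tethered and primed by Munc13 proteins and Munc18 proteins (the products of the Unc13 and Stxbp genes). Fusion is driven by SNARE proteins: a VAMP on the granule pairs with a syntaxin and a SNAP-25 family protein on the target membrane, while synaptotagmins and complexins tie the reaction to calcium. NSF, recruited by alpha-SNAP (Napa), takes spent SNARE complexes apart for another round. In mast cells the best known parts of this apparatus are SNAP-23, syntaxin 4, VAMP-8, Munc18-2, Munc13-4 and Rab27.

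The 6 groups were hybridised on 1 array each, and each RNA was pooled from 3 samples. Mast cells grown from bone marrow in IL-3 (10 ng/ml) were taken alone, either Pla2g3+/+ or labelled Pla2g3-/- (Pla2g3 encodes a secreted phospholipase A2). The same 2 kinds of cell were taken after 4 days on wild-type Swiss 3T3 fibroblasts (a long-established line from mouse embryos) in the presence of stem cell factor at 100 ng/ml. In the last pair, wild-type mast cells were kept in the same way on Lpar1+/+ or Lpar1-/- Swiss 3T3 cells (Lpar1 encodes a receptor for lysophosphatidic acid); the Lpar1-/- line was made by CRISPR/Cas9 with cloning from single cells, so it stands for that clone. All cultures thus shared IL-3, and the 4 cocultures shared stem cell factor; the labels do not say whether the cells alone received it, nor by which of 2 routes (nonadherence after reseeding, or CD117 beads) mast cells were taken off the fibroblasts for these RNAs.

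A level below is the log2 processed intensity minus that array's 75th percentile, so 0 is the brightness of the probe at that percentile, and a difference of 1 between arrays is 2-fold. With 1 array a group there is no replicate and no p-value, and counts of higher and lower genes take differences that reach 2-fold; smaller differences are given by their values only. As a yardstick, the 2 cocultures of wild-type cells on wild-type fibroblasts, which the labels treat alike, differed with an SD of 0.25 over all genes, and nearly all genes (the 95th percentile of the absolute difference) lay within 0.53 of each other. The scanner's own spot error on a difference had a median of 0.20. Brightness depends on the probe, so levels of different genes are not set against each other. Pooled RNA of a whole culture cannot tell fewer cells of a type from less RNA per cell.

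Between 70.7 and 80.4% of spots were well above background on each array and none was saturated. Pla2g3 went against its label: it read -6.31 in Pla2g3+/+ and 0.51 in labelled Pla2g3-/- cells alone, and -7.31 and -1.84 in the same pair in coculture. The part of the gene that the allele lacks is not known here, so every direction drawn between these libraries is a direction between labels. Lpar1 was 1 of 6 reference genes (with Pla2g3, Actb, Gapdh, Tbp and Hprt). On Lpar1-/- fibroblasts 0 of these 6 were lower by 2-fold and 1 was higher. No 2-fold loss of Lpar1 RNA was thus seen under the Lpar1-/- label, and directions there are also between labels. All 12 mast cell markers were well above background on every array. Fibroblast markers summed to 3.78 and 3.22 times the 75th percentile in the cells alone, 37.8 and 17.0 in the Pla2g3+/+ and labelled Pla2g3-/- cocultures, and 39.8 and 36.5 on Lpar1+/+ and Lpar1-/- fibroblasts; 12 of the 20 were well above background in the cells alone and 17 to 19 in coculture. Neutrophil and eosinophil markers summed to 44.4 in Pla2g3+/+ cells alone, 14.3 on Lpar1-/- fibroblasts and between 2.34 and 4.90 elsewhere. Macrophage and dendritic markers summed to between 4.78 and 13.8. The cells alone were hybridised on another slide than the cocultures, so the effects of slide and of coculture cannot be told apart; comparisons within the cells alone or within the cocultures are free of that.

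Of the 36 genes, 35 were well above background on all 6 arrays. The exception was Syt2, which was not well above background on any, with readings from -10.2 to -8.65. In 12 genes at least 1 comparison passed 2-fold, and in the other 23 measured genes none did. Of these, 11 passed between arrays, and Rab27a passed only in the difference between the 2 coculture differences. The share of all genes past 2-fold in at least 1 comparison was not counted, so the 12 have no background beside them. Shares for each comparison follow. In Pla2g3+/+ cells 4 of 35 genes differed by coculture (Stx11, Sytl2 and Cplx1 higher, Syt9 lower), or 11.4% against 20.6% of all genes (13.0% higher and 7.52% lower). Under the Pla2g3-/- label 4 of 35 differed (Sytl2, Syt11 and Cplx1 higher, Sytl3 lower), or 11.4% against 18.7% (11.4% higher and 7.28% lower). Between the labels in coculture 5 differed (Sytl1, Syt11 and Cplx2 higher and Stx11 and Vamp3 lower under Pla2g3-/-), or 14.3% against 19.5% (9.11% higher and 10.4% lower). On Lpar1-/- fibroblasts 7 differed (Sytl1, Syt11 and Rab3a higher and Stx11, Vamp3, Sytl2 and Nsf lower), or 20.0% against 20.1% (11.3% higher and 8.86% lower). Each share is at or below the background with these settings. For Lpar1 it was 17.1% against 12.4% with normexp background correction, 25.7% against 21.0% with quantile normalization and 48.6% against 38.8% at 1.5-fold, and for the label in coculture 14.3% against 11.3% with normexp.

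**Figure D1:**
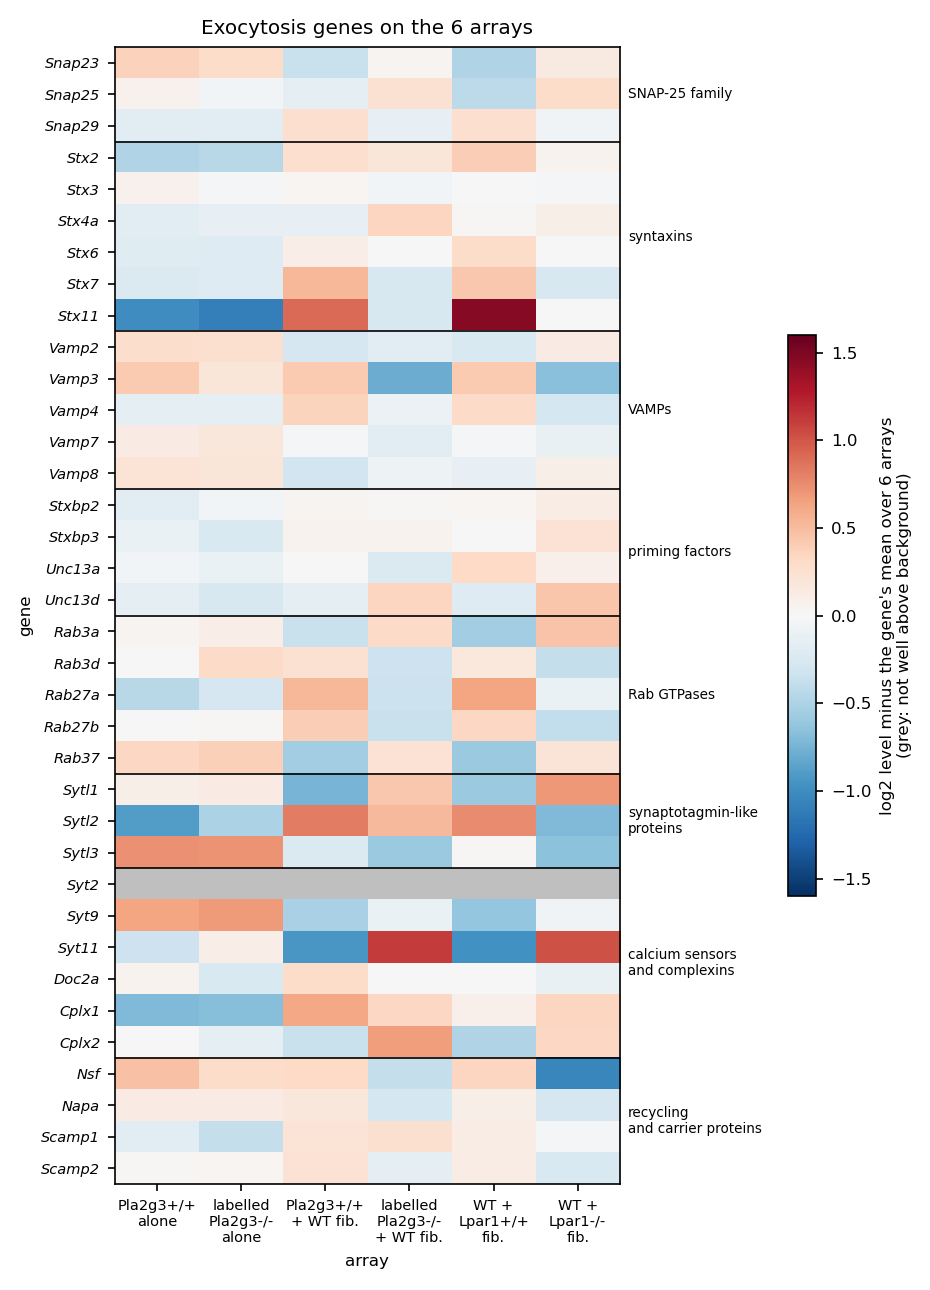
Levels of the 36 exocytosis genes (rows, by role) on the 6 arrays (columns), coloured by the log2 level minus the gene's mean over the arrays; "fib." means fibroblasts and grey marks Syt2, not well above background. The columns of the cells alone look alike, and Syt11, Stx11 and Sytl2 span the widest range among the cocultures.

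Without fibroblasts the machinery was nearly the same under both Pla2g3 labels. The 35 measured genes differed by -0.31 (Doc2a) to 0.45 (Syt11), 0 of them by 2-fold, against 1.99% of all genes (0.414% higher and 1.57% lower). Syt11 and Sytl2 (0.39) were the highest of these, each above its spot error and inside the yardstick of 0.53. The pair of wild-type cocultures gave 0 of 35 as well, against 0.958% of all genes (0.792% higher and 0.167% lower), with a range from -0.53 (Cplx1) to 0.55 (Stx11). Thus Stx11 and Cplx1 were the members that varied most between cultures meant to be alike. Neutrophil and eosinophil markers were lower under the Pla2g3-/- label in the cells alone (13 of 15 by 2-fold or more), while no exocytosis gene was; the part of these cells in any member's level was not tested.

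**Figure D2:**
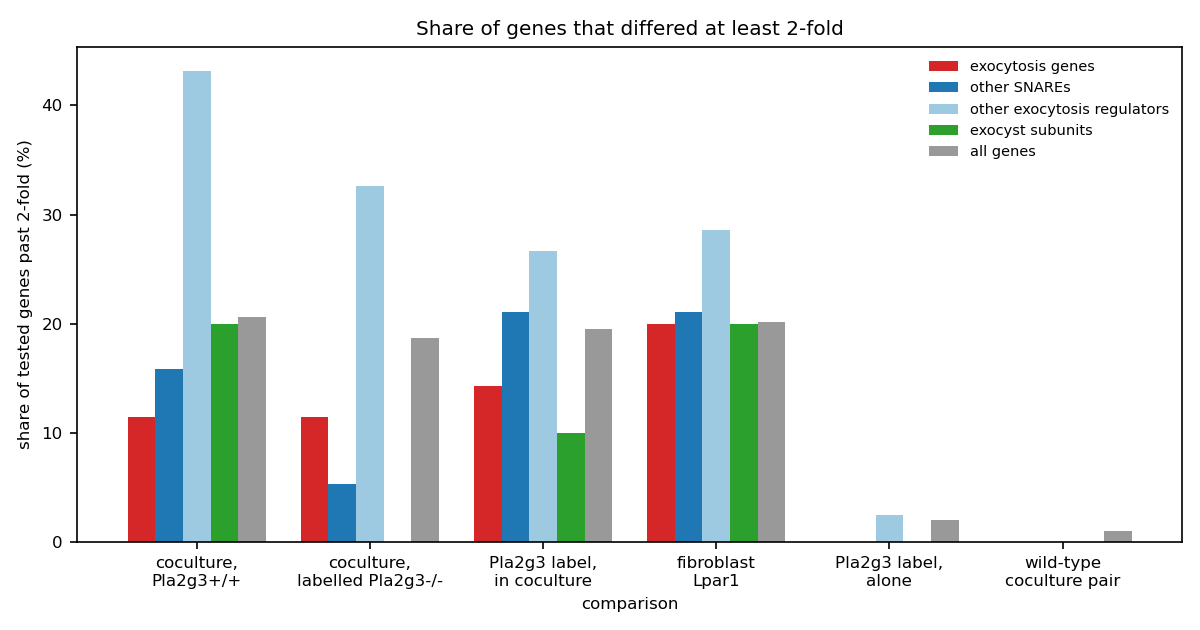
Share of tested genes that differed by 2-fold or more (vertical axis, percent) in 6 comparisons, for the exocytosis genes, 3 further lists of exocytosis genes and all genes. The exocytosis genes reach 20.0% on Lpar1-/- fibroblasts, beside 20.1% of all genes, and 0 in both comparisons on the right.

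Of the plasma membrane SNAREs, the SNAP-25 family stayed within 2-fold by the brightest probes, but not by every probe. Snap23, the family member known for mast cell degranulation, read 3.19 and 3.11 in Pla2g3+/+ and labelled Pla2g3-/- cells alone. In coculture it read 2.47 and 2.86 for that pair, and 2.34 and 2.96 on Lpar1+/+ and Lpar1-/- fibroblasts. All 4 cocultures thus lay below both cultures alone, by -0.72 in Pla2g3+/+ cells, and the wild-type pair lay lowest. Its other 2 probes placed the coculture difference at -1.09 and -1.26 in Pla2g3+/+ cells and at -0.69 and -1.08 under the Pla2g3-/- label, so whether Snap23 passes 2-fold depends on the probe. Snap25, best known from nerve terminals, gave 0.40 for the Pla2g3-/- label in coculture and 0.72 for Lpar1-/- fibroblasts. Snap29, a SNARE that acts on internal membranes, gave -0.40 and -0.33 by its brightest probe and -0.54 and -1.17 by a second.

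Among the syntaxins, Stx11 stood apart from the other 5. This syntaxin, whose human counterpart is mutated in a familial form of haemophagocytic lymphohistiocytosis, acts in the release of cytotoxic granules. It read -1.36 and -1.47 in Pla2g3+/+ and labelled Pla2g3-/- cells alone. On fibroblasts it read 0.53 and -0.63 for that pair, and 1.08 and -0.38 on Lpar1+/+ and Lpar1-/- fibroblasts. All 4 cocultures lay above both cultures alone, and the 2 wild-type cocultures above the other two. The coculture difference was 1.89 (3.70-fold) in Pla2g3+/+ cells but 0.84 for the Pla2g3-/- label, and the difference of these was -1.05 (2.06-fold), with a spot error of 0.29. Stx11 was 2.24-fold lower under the Pla2g3-/- label in coculture and 2.75-fold lower on Lpar1-/- fibroblasts. Since the 2 wild-type cocultures themselves differed by 0.55, the last value rests on which is the partner: set against the other wild-type coculture it was -0.91, short of 2-fold.

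The Stx11 probe lies on chromosome 10 at 12660488 to 12660547 (mm9). The 250 bases before the Stx11 start in RefSeq (GRCm38.p6, chr10:12964260-12964509, minus strand) are shown with those of Syt11 (chr3:88772600-88772849, minus strand) and Sytl1 (chr4:133263088-133263337, minus strand). They are printed because these are the genes that differed by 2-fold or more, in the same direction, both between the Pla2g3 labels in coculture and between Lpar1 fibroblasts, apart from Vamp3, which the promoter table does not hold. Capitals would mark CACGTG, the E-box of MITF, a transcription factor of mast cells, and none of the 3 windows has it.
Stx11: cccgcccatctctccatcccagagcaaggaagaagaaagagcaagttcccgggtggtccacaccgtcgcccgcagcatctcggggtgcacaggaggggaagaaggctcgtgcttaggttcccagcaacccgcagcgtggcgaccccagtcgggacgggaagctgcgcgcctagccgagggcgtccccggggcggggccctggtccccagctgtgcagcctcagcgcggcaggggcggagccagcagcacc
Syt11: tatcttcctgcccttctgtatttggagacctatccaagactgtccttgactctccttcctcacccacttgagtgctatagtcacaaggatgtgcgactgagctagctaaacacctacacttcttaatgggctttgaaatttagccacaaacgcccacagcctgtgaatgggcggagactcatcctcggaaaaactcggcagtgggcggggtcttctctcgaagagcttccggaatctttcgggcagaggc
Sytl1: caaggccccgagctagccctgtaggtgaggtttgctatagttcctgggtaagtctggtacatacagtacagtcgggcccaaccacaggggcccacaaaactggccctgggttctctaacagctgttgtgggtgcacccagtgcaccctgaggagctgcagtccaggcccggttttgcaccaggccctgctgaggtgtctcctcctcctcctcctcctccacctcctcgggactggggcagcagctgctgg

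By their brightest probes the other syntaxins stayed within 2-fold in every comparison. Stx4a, the plasma membrane syntaxin of mast cell degranulation, read 4.70 and 4.74 alone, 4.74 and 5.22 in the Pla2g3+/+ and labelled Pla2g3-/- cocultures, and 4.89 and 4.97 on Lpar1+/+ and Lpar1-/- fibroblasts. The labelled Pla2g3-/- coculture read highest, 0.48 above its partner, which is inside the yardstick of 0.53. A second probe gave 0.14 for that difference. With coculture under the Pla2g3+/+ and Pla2g3-/- labels it gave 0.37 and 0.40, where the brightest gave 0.03 and 0.48. Stx3, which marks granule membranes in mast cells, was the flattest member by its brightest probe, between 3.15 and 3.26 on all 6 arrays. A dimmer Stx3 probe (chromosome 19, 11850243 to 11850302, mm9) read -2.97 and -2.94 alone, -3.21 and -1.71 in the first coculture pair, and -3.10 and -1.35 on the Lpar1 pair, or 1.5 and 1.75 higher in the labelled Pla2g3-/- and Lpar1-/- cocultures. Stx7, a late endosomal syntaxin, read 2.74 and 2.64 in the 2 wild-type cocultures and between 1.95 and 2.00 on the other 4 arrays. Stx2 gave 0.75 and 0.62 with coculture under the 2 Pla2g3 labels by its brightest probe and 0.38 and -0.30 by a far dimmer one, which also read -1.05 (2.08-fold lower) for the label in coculture. Stx6, of the trans-Golgi network, gave 0.30 and 0.21 with coculture by its brightest probe and -0.16 and -0.44 by the other.

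Of the VAMPs, only Vamp3 passed 2-fold. Vamp3 encodes cellubrevin, a SNARE of recycling endosomes. It read -0.35 and -0.58 in Pla2g3+/+ and labelled Pla2g3-/- cells alone. With fibroblasts the level was -0.35 and -1.57 for that pair, and -0.36 and -1.44 on Lpar1+/+ and Lpar1-/- fibroblasts. The wild-type cocultures matched Pla2g3+/+ cells alone to 0.01, and the labelled Pla2g3-/- and Lpar1-/- cocultures lay below all other arrays. The difference was 2.33-fold between the Pla2g3 labels and 2.11-fold between Lpar1 fibroblasts. Under the Pla2g3-/- label coculture itself gave -0.99, just short of 2-fold. The probe lies on chromosome 4 at 150422377 to 150422436 (mm9).

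Vamp8, the VAMP most tied to regulated mast cell secretion, read 3.90 and 3.88 alone, 3.38 and 3.60 in the first coculture pair, and 3.55 and 3.78 on the Lpar1 pair. Every coculture read below both cultures alone, and the coculture differences of -0.52 and -0.28 were within 2-fold. Vamp2 gave -0.55 and -0.42 with coculture by its brightest probe; a far dimmer probe of the gene gave 1.29 and 1.03. Vamp7, a SNARE of late endosomes and lysosomes, stayed between 0.01 and 0.36 on the 6 arrays. Vamp4 changed direction with the probe: coculture of Pla2g3+/+ cells gave 0.52 by the brightest and -0.98 by the other. For the Pla2g3 label in coculture and Lpar1 the second probe gave 0.69 and 0.77, where the brightest gave -0.46 and -0.59.

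The priming factors did not pass 2-fold in any comparison. Stxbp2 (Munc18-2), the main Munc18 protein of mast cell degranulation, stayed between 3.02 and 3.31, and Stxbp3 (Munc18-3) between -0.81 and -0.34. Unc13d (Munc13-4), which primes granules downstream of Rab27, read 2.47 and 2.37 in the cells alone. Cocultured, it read 2.49 and 2.97 for Pla2g3+/+ and labelled Pla2g3-/- cells, and 2.42 and 3.07 on Lpar1+/+ and Lpar1-/- fibroblasts. The 2 wild-type cocultures sat with the cells alone and the other two lay above, by 0.48 and 0.65; a dimmer probe gave -0.04 in place of 0.60 with coculture under the Pla2g3-/- label. Unc13a, a neuronal Munc13, stayed between -5.70 and -5.15.

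Among the Rab GTPases, Rab3a and Rab27a passed 2-fold. Rab3a, a vesicle Rab of regulated secretion, read 0.09 and 0.16 in the cells alone. The cocultures read -0.31 and 0.36 for Pla2g3+/+ and labelled Pla2g3-/- cells, and -0.51 and 0.51 on Lpar1+/+ and Lpar1-/- fibroblasts. The wild-type cocultures lay below the cells alone and the other two above them. The Lpar1 difference of 1.02 (2.03-fold) is the only call for Rab3a, and it was 0.98 with normexp, 0.96 with median centring and 0.81 against the other wild-type coculture, each short of 2-fold. The probe lies on chromosome 8 at 73282447 to 73282506 (mm9).

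Rab27a, the Rab that docks lysosome-related granules through synaptotagmin-like proteins and Munc13-4, read -1.91 and -1.74 alone. After coculture the readings were -0.94 and -1.81 for Pla2g3+/+ and labelled Pla2g3-/- cells, and -0.84 and -1.58 on Lpar1+/+ and Lpar1-/- fibroblasts. Only the 2 wild-type cocultures stood above the rest. The coculture difference was 0.97 in Pla2g3+/+ cells but -0.07 for the Pla2g3-/- label, and their difference was -1.04 (2.06-fold, spot error 0.29). This is the only call for Rab27a, and with normexp it was -0.95, short of 2-fold. Across all genes 20.2% of these differences of differences passed 2-fold (9.74% higher and 10.5% lower); among the exocytosis genes 5 of 35 did, with Sytl1, Syt11 and Cplx2 higher and Stx11 and Rab27a lower. The probe lies on chromosome 9 at 72944668 to 72944727 (mm9).

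Rab27b, the isoform most tied to mast cell granules, was likewise highest in the 2 wild-type cocultures, reading 4.61 and 4.62 alone, 5.0 and 4.25 in the first coculture pair, and 4.94 and 4.21 on the Lpar1 pair. The labelled Pla2g3-/- and Lpar1-/- cocultures lay lowest, below both cultures alone, at -0.74 and -0.73 against their partners. Rab3d, a granule Rab of mast cells, gave -0.58 and -0.54 in the same comparisons. Rab37, also found on mast cell granules, ran the other way, at 5.12 and 5.18 alone, 4.24 and 5.03 in the first coculture pair, and 4.2 and 5.0 on the Lpar1 pair. Thus Rab37 was low only in the 2 wild-type cocultures, by -0.88 with coculture of Pla2g3+/+ cells, and its second probe gave the same order.

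**Figure D3:**
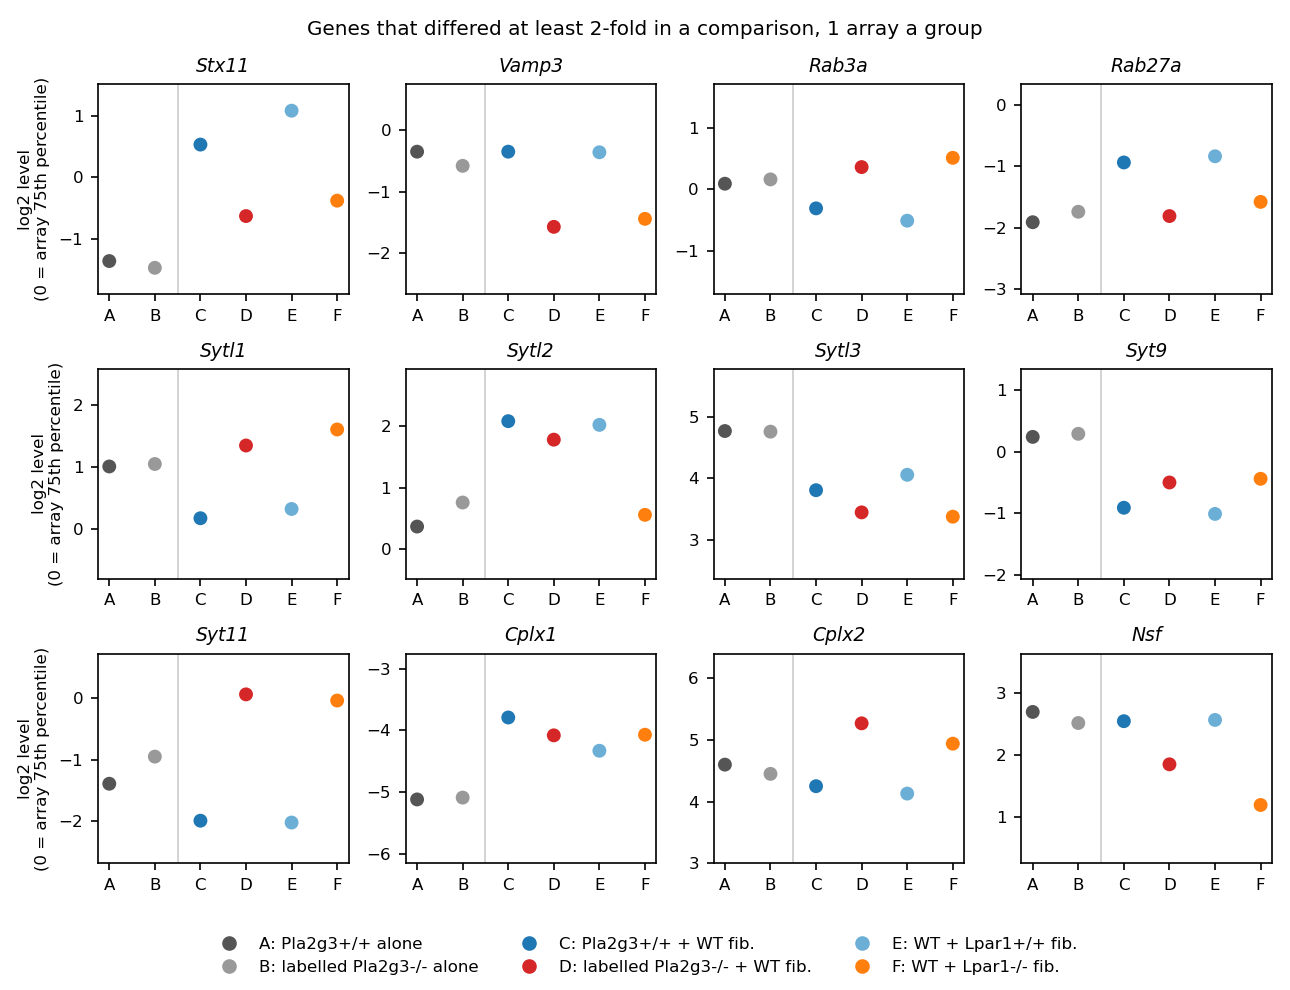
Log2 level (vertical axes, 0 is the array's 75th percentile) of the 12 genes that differed by 2-fold or more in at least 1 comparison; each point is 1 array, and the grey line parts cells alone (A, B) from cocultures (C to F). In Syt11, Vamp3 and Sytl1 the labelled Pla2g3-/- (D) and Lpar1-/- (F) cocultures lie together, away from the wild-type cocultures (C, E).

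The 3 synaptotagmin-like proteins followed 3 different patterns. Each passed 2-fold in at least 1 comparison, a share that was not counted over all genes. Sytl1 (Slp1), a Rab27 effector, read 1.01 and 1.05 in the cells alone. In coculture it read 0.17 and 1.35 for Pla2g3+/+ and labelled Pla2g3-/- cells, and 0.32 and 1.61 on Lpar1+/+ and Lpar1-/- fibroblasts. The wild-type cocultures lay below the cells alone and the other two above them. Sytl1 was 2.26-fold higher under the Pla2g3-/- label in coculture and 2.46-fold higher on Lpar1-/- fibroblasts, and the difference of coculture differences was 1.13 (2.19-fold). A second, dimmer probe gave 1.08 and 1.18 for the first 2 of these. The brightest lies on chromosome 4 at 132809016 to 132809075 (mm9).

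Sytl2 (Slp2-a), another Rab27 effector that binds the plasma membrane, read 0.37 and 0.76 in the cells alone. On fibroblasts it read 2.08 and 1.78 for Pla2g3+/+ and labelled Pla2g3-/- cells, but 2.02 and 0.56 on Lpar1+/+ and Lpar1-/- fibroblasts. The Lpar1+/+ and both Pla2g3 cocultures were high, and the Lpar1-/- coculture lay between the 2 cultures alone. The coculture difference was 1.71 (3.27-fold) in Pla2g3+/+ cells and 1.02 (2.03-fold) under the Pla2g3-/- label. The Lpar1-/- label of the fibroblasts gave -1.46 (2.75-fold lower), while the Pla2g3-/- label gave -0.29 in coculture. These 2 differences share no array and were not tested against each other. The probe lies on chromosome 7 at 97558507 to 97558566 (mm9).

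Sytl3 (Slp3) read 4.77 and 4.76 in the cells alone. With fibroblasts the level was 3.81 and 3.45 for Pla2g3+/+ and labelled Pla2g3-/- cells, and 4.06 and 3.38 on Lpar1+/+ and Lpar1-/- fibroblasts. Every coculture was below both cultures alone, by -0.95 in Pla2g3+/+ cells and -1.31 (2.48-fold) under the Pla2g3-/- label, and a second probe gave -1.33 for the latter. The brightest probe lies on chromosome 17 at 6942330 to 6942389 (mm9).

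Of the synaptotagmins, Syt11 showed the largest differences in the Pla2g3 and Lpar1 comparisons among the 35 measured genes. Synaptotagmin 11 is a family member that does not bind calcium and acts in membrane traffic. It read -1.39 and -0.95 in Pla2g3+/+ and labelled Pla2g3-/- cells alone. Cocultured, it read -1.99 and 0.06 for that pair, and -2.02 and -0.04 on Lpar1+/+ and Lpar1-/- fibroblasts. The wild-type cocultures lay below both cultures alone and agreed within 0.03, and the other two lay above every other array. Syt11 was 4.14-fold higher under the Pla2g3-/- label in coculture and 3.95-fold higher on Lpar1-/- fibroblasts. The coculture differences had opposite signs, at -0.60 in Pla2g3+/+ cells and 1.01 (2.01-fold) under the Pla2g3-/- label. Both cross slides, and the second was 0.95 with normexp and 0.96 with quantile normalization and median centring, short of 2-fold. The difference between the coculture differences was 1.6 (3.04-fold) with a spot error of 0.29. Its promoter window is printed above, and the probe lies on chromosome 3 at 88548623 to 88548682 (mm9).

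Syt9, a synaptotagmin described in mast cells as acting in granule and recycling compartment sorting, read 0.24 and 0.29 in the cells alone. The cocultures read -0.91 and -0.50 for Pla2g3+/+ and labelled Pla2g3-/- cells, and -1.01 and -0.44 on Lpar1+/+ and Lpar1-/- fibroblasts. All cocultures lay below both cultures alone, by -1.16 (2.23-fold) in Pla2g3+/+ cells and -0.79 for the Pla2g3-/- label. The Lpar1-/- and labelled Pla2g3-/- cocultures were less low than their partners, by 0.57 and 0.41. The probe lies on chromosome 7 at 114691578 to 114691637 (mm9). Doc2a, a C2 domain calcium sensor of neurons, stayed between -5.39 and -4.85, and its cells alone and cocultures overlapped.

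The complexins, which both clamp and promote SNARE assembly, passed 2-fold with limits given here. Cplx2, the complexin known from mast cell degranulation, read 4.60 and 4.45 in the cells alone. After coculture the readings were 4.25 and 5.27 for Pla2g3+/+ and labelled Pla2g3-/- cells, and 4.13 and 4.94 on Lpar1+/+ and Lpar1-/- fibroblasts. By this brightest probe the wild-type cocultures lay lowest and the other two highest. The label difference in coculture was 1.02 (2.03-fold), the Lpar1 difference 0.81, and the difference of coculture differences 1.17 (2.25-fold). Another bright probe that overlaps this one (chromosome 13, 54481322 to 54481381 against 54481354 to 54481413, mm9) gave 0.24, 0.44 and 0.36 for these. It did not keep the order: coculture of Pla2g3+/+ cells gave 0.52 by it and -0.35 by the brightest. The mean over all 4 probes reversed the label difference to -0.55 and the difference of differences to -0.38. Of the 2 remaining Cplx2 probes in that mean, 1 was dim, at -5.22 and -7.19 in the first coculture pair, and 1 stayed at background throughout. Cplx1, chiefly a neuronal complexin, read -5.12 and -5.09 alone, -3.79 and -4.08 in the first coculture pair, and -4.33 and -4.07 on the Lpar1 pair. Its coculture differences of 1.32 (2.5-fold) and 1.01 (2.01-fold) come from a dim probe (chromosome 5, 108947895 to 108947954, mm9) whose wild-type cocultures differed by -0.53, and the first was 0.79 against the other wild-type coculture. With normexp they were 0.62 and 0.57, and the second was 0.61 with quantile normalization and 0.97 with median centring, all short of 2-fold.

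Fibroblast markers differed widely from the cells alone: 15 of 18 were higher in coculture and 2 lower under either Pla2g3 label. Their median differences were 5.70 and 5.09, beside 0.03 and 0.04 for the exocytosis genes. Neutrophil and eosinophil markers were lower in 13 of 16 and higher in 0 in Pla2g3+/+ cells. Under the Pla2g3-/- label 6 of 13 were lower and 2 higher. Macrophage and dendritic markers were higher in 3 and lower in 3 of 13, then higher in 2 and lower in 4. Of the 12 mast cell markers 3 and 2 were higher with coculture under the Pla2g3+/+ and Pla2g3-/- labels, and 0 lower. Within the cocultures, 9 of 18 fibroblast and 7 of 13 macrophage and dendritic markers were lower under the Pla2g3-/- label, with 0 and 1 higher. Neutrophil and eosinophil markers were lower in 4 of 13 there and higher in 2. Mast cell markers were lower in 3 of 12 and higher in 0, both under that label and on Lpar1-/- fibroblasts. On Lpar1-/- fibroblasts 10 of 14 neutrophil and eosinophil markers were higher and 0 lower, and 5 of 19 fibroblast markers were higher and 2 lower. Of 14 macrophage and dendritic markers 1 was higher there and 3 lower. Col1a1, the defining collagen of fibroblasts, read -7.67 in Pla2g3+/+ cells alone, was not well above background in labelled Pla2g3-/- cells alone, and read between 0.84 and 2.16 in coculture. The part of these cells in the exocytosis genes' levels was not tested.

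Of the 4 recycling and carrier proteins, only Nsf passed 2-fold, and only on Lpar1-/- fibroblasts, by the brightest probes. Nsf, the ATPase that unwinds SNARE complexes, read 2.70 and 2.52 in the cells alone. In coculture it read 2.55 and 1.85 for Pla2g3+/+ and labelled Pla2g3-/- cells, and 2.57 and 1.19 on Lpar1+/+ and Lpar1-/- fibroblasts. The 2 wild-type cocultures sat with the cells alone. The Lpar1 difference was -1.37 (2.59-fold lower) and the label difference -0.71, with -0.60 and -0.86 by a second probe. By the mean of both probes the Lpar1 difference was -0.99, just inside 2-fold. The brightest Nsf probe lies on chromosome 11 at 103683921 to 103683980 (mm9).

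Napa (alpha-SNAP), which brings NSF to the SNAREs, read 3.79 on both arrays of cells alone, 3.84 and 3.37 in the first coculture pair, and 3.75 and 3.39 on the Lpar1 pair. Its differences of -0.48 and -0.36 became -1.13 and -1.40 by a second probe. The carrier membrane protein Scamp2 gave -0.39 and -0.36 in these comparisons. Scamp1 gave 0.41 and 0.64 with coculture under the 2 labels, and the first was -0.16 by another probe.

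Nsf and Napa, the pair that takes SNARE complexes apart, are shown with their 250 upstream bases. Both carry the CACGTG E-box there, in capitals, but it is not particular to them. A window of each of Stx6, Vamp4, Stxbp2, Rab27a and Scamp1, not printed, holds it too. The Nsf window is chr11:103954057-103954306 on the minus strand and the Napa window chr7:16098330-16098579 on the plus strand (RefSeq, GRCm38.p6).
Nsf: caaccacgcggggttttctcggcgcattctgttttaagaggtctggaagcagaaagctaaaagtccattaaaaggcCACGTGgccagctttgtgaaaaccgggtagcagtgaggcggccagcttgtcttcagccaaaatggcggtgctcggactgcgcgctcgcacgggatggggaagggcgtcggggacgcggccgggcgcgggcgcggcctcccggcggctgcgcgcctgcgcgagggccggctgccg
Napa: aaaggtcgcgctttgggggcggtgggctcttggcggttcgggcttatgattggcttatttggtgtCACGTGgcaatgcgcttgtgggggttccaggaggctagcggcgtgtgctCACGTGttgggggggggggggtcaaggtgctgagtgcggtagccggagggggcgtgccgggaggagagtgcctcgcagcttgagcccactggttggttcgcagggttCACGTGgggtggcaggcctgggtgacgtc

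The motif begins at position -174 from the start of Nsf, and 3 times before Napa, of which the farthest 2 begin at -185 and -136. Promoter windows of 250 bases before and 50 after the start were held for 27 of the 36 genes, 34 windows in all, and CACGTG (its own reverse complement, so 1 search covers both strands) was in 7 of them, or 20.6%, beside 7.15% of 32851 mouse windows of that length. The longer GTCACGTG, searched on both strands and always overlapping a CACGTG, was in 2 of 34, or 5.88%, beside 2.25%. Among the 10 genes past 2-fold with a window, 2 of 12 windows held CACGTG (16.7%) and 0 held GTCACGTG. These are matches of letters, not binding sites, and were not related to the differences by any test.

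The Pla2g3 label in coculture and fibroblast Lpar1 gave like differences gene by gene, although the 2 comparisons share no array. Over the 35 measured genes Pearson's r was 0.92 and Spearman's rho 0.92, and 32 had the same sign (91.4%). Over 20723 genes well above background in all 4 cocultures r was 0.86 and rho 0.83, and 81.9% had the same sign, so the likeness was that of the arrays at large. All 4 arrays were on the same slide. The 2 comparisons both passed 2-fold in the same direction for Syt11 and Sytl1 (higher) and Stx11 and Vamp3 (lower), 4 of 35 beside 14.6% of all genes (7.77% higher and 6.87% lower). By unrounded levels, the labelled Pla2g3-/- and Lpar1-/- cocultures lay both above the 2 wild-type cocultures in 13 genes and both below in 18, so 88.6% did not overlap, beside 73.4% of all genes (34.7% above and 38.7% below). The exceptions were Stxbp2, Unc13a, Scamp1 and Cplx1. No least gap was asked for, so differences as small as 0.00 (Stxbp3, for the label) are counted. Both differences had the same sign and passed the yardstick of 0.53 in 12 of the 35 genes, beside 6467 of the 20723.

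**Figure D4:**
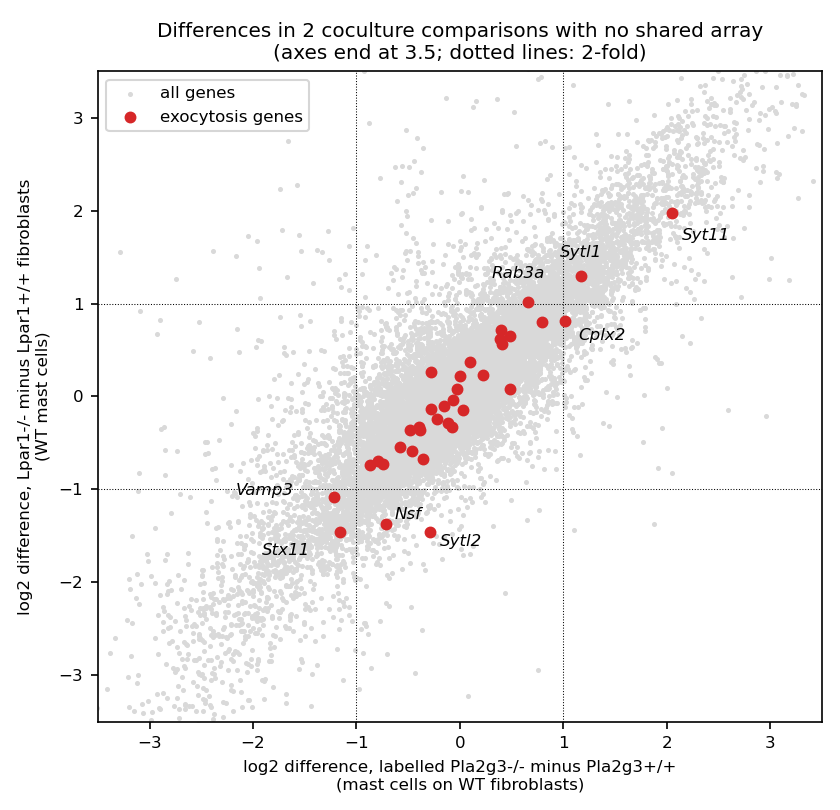
Log2 difference between Pla2g3 labels in coculture (horizontal axis) against that between Lpar1-/- and Lpar1+/+ fibroblasts (vertical axis), 1 point a gene, with the 35 exocytosis genes in red and all genes in grey. The red points follow the diagonal of the grey cloud; Sytl2 lies off it, at -0.29 and -1.46.

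Probes of the same gene did not always agree, as the plot of separate probes shows for 6 genes. Several probes were present for 21 of the 36 genes, and among those described above, probes of Snap23, Snap29, Stx2, Stx3, Stx6, Vamp2, Vamp4, Unc13d, Cplx2, Nsf, Napa and Scamp1 differed by more than 0.53 in at least 1 comparison measured by both. Stxbp3 gave 0.15 and -0.39 with coculture of Pla2g3+/+ cells. A second Snap29 probe gave -1.17 on Lpar1-/- fibroblasts where the brightest gave -0.33. Stx11, Vamp3, Rab3a, Rab27a, Sytl2, Syt9, Syt11 and Cplx1 had 1 probe each, so their values could not be cross-checked within an array.

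**Figure D5:**
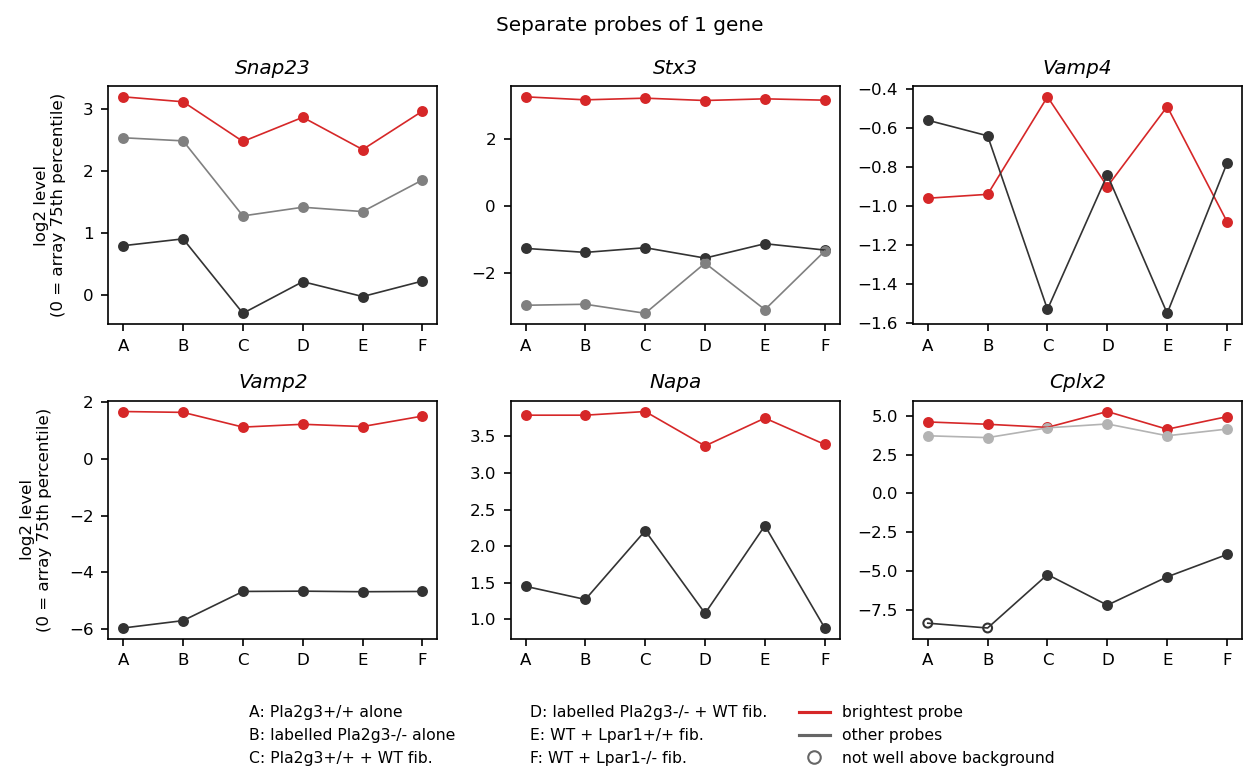
Log2 level (vertical axes, 0 is the array's 75th percentile, scales differ between panels) of the probes of 6 genes on the arrays A to F, leaving out a Cplx2 probe that was not well above background on any; red is the brightest probe, dark and light grey the others, and open circles are not well above background. The Vamp4 probes cross, and the dimmest Stx3 probe departs in D and F while the brightest stays flat.

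The rest of the exocytosis pathway was read from 3 further lists. Of 19 SNAREs outside the 36 genes, 1 was higher and 2 lower with coculture of Pla2g3+/+ cells, or 15.8% beside 20.6% of all genes. With coculture under the Pla2g3-/- label 1 was higher and 0 lower, or 5.26% beside 18.7%. In both the label comparison in coculture and the Lpar1 comparison 2 were higher and 2 lower. This was 21.1% each time, beside 19.5% and 20.1% of all genes. Vamp1, a close relative of Vamp2, was 3.43-fold lower with coculture of Pla2g3+/+ cells, 4.33-fold higher under the Pla2g3-/- label in coculture and 6.09-fold higher on Lpar1-/- fibroblasts. Snap47 was 2.83-fold higher with coculture under the Pla2g3-/- label and 3.03-fold higher on Lpar1-/- fibroblasts. Of 44 measured regulators outside the 36 genes, 13 were higher and 6 lower with coculture of Pla2g3+/+ cells, with Syt13 149-fold and Rab3il1 16.2-fold higher and Stxbp6 26.5-fold lower. This was 43.2% beside 20.6% of all genes. With coculture under the Pla2g3-/- label 9 of 43 were higher and 5 lower, or 32.6% beside 18.7%. In the label comparison in coculture 5 of 45 were higher and 7 lower, or 26.7% beside 19.5%. In the Lpar1 comparison 7 of 49 were higher and 7 lower, or 28.6% beside 20.1%. Rabgef1 (Rabex-5), a Rab5 activator that restrains mast cell activation, was 5.23-fold higher with coculture of Pla2g3+/+ cells, 5.06-fold lower under the Pla2g3-/- label and 5.89-fold lower on Lpar1-/- fibroblasts. Unc13b (Munc13-2) was 2.87-fold and 2.88-fold lower in the last 2 comparisons. Of 10 exocyst subunits, which tether vesicles before fusion, Exoc3 was 3.48-fold lower with coculture of Pla2g3+/+ cells, 3.34-fold higher under the Pla2g3-/- label and 3.52-fold higher on Lpar1-/- fibroblasts. In these 3 comparisons 20.0, 10.0 and 20.0% of the subunits passed 2-fold, beside 20.6, 19.5 and 20.1% of all genes. With coculture under the Pla2g3-/- label 0 did, beside 18.7%.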

How the data were processed

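Cy3 fluorescence of 6 mouse whole-genome Agilent arrays was used, 1 array per group. Per the file headers, the authors extracted spot intensity with Agilent Feature Extraction 12.1.1.1, which subtracts background, so dim values rest on its background model. The value table that was deposited gives signal on a linear scale, equal on each array to the processed intensity divided by a constant near that array's 75th percentile (1230.44 to 1520.37); its column medians were 0.038 to 0.0534, and no centring was found. It served as an alternative.

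Log2 processed intensity was taken minus each array's 75th percentile over its 43020 spots other than controls. Outlier spots were then left out and spots of a probe averaged, which left 39416 probes. This was done in R 4.3.3, with limma 3.58.1 for the alternatives, and Python 3.11.15. A gene took its brightest probe by mean level. Genes not well above background on any array compared were left out of that comparison. With 1 array a group no test was possible; the rule was a difference of 2-fold or more. Members past it anywhere are given array by array, the others by range and counts, and up to 5 genes a direction are named from the other lists. The counting was tested on simulated data. Of 62 member probes, 55 matched RefSeq by accession, all with the same symbol. The members, the lists and the 2-fold rule were chosen with earlier results of these data known. Alternatives were normexp background correction (offset 50), quantile normalization, median centring, the mean over probes, filters on dim probes, the deposited table, the other wild-type or fibroblast-free array, and a 1.5-fold rule.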

Additional observations from a re-analysis of the deposited data

Results flagged for a closer look

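Syt11 was marked because its coculture difference went opposite ways under the 2 Pla2g3 labels, each by more than the 0.53 within which nearly all genes of the wild-type cocultures lay. It was -0.60 in Pla2g3+/+ cells and 1.01 under the Pla2g3-/- label. With 1 array a group the difference between these was not tested. Both coculture differences cross slides, while the 0.53 comes from 2 arrays on the same slide. A shift between slides cancels in the difference between them but not in the sign of each. The Pla2g3 signal of the libraries labelled Pla2g3-/- goes against that label.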

How the results depend on the processing

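No paired analysis was possible because each group had 1 array. The values of genes past 2-fold kept their direction in 202 of 204 recomputations, but many of the 204 could not reverse. Each of the 2 filters on dim probes and the deposited table gave 25 of them and left these values the same to within rounding. The mean over probes also changes nothing for a gene with 1 probe. The 2 that reversed were Cplx2 by the mean of all probes. They went to -0.55 for the label difference in coculture and -0.38 for the difference of coculture differences. Of the counts past 2-fold, coculture under the Pla2g3-/- label moved from 4 to 1 with normexp and to 2 (0 higher, 2 lower, 1 of them among the original 4) with median centring; Sytl2 and Syt11 went to 0.97 and 0.95 and to 0.98 and 0.96, and Cplx1 to 0.57 and 0.97. The wild-type pair gave 1, Unc13a, by the mean of all probes, through a second probe that was not well above background in Pla2g3+/+ coculture. At 1.5-fold the counts were 12 and 13 for coculture under the Pla2g3+/+ and Pla2g3-/- labels, 11 for the label in coculture, 17 for Lpar1 and 13 for the difference of coculture differences, or 34.3, 37.1, 31.4, 48.6 and 37.1% of 35, beside 39.8, 40.0, 38.5, 38.8 and 39.3% of all genes. The Lpar1 count was 9 with quantile normalization and 6 with normexp. With the other wild-type coculture array Stx11 for Lpar1 was -0.91, Cplx1 with coculture 0.79, Rab3a for Lpar1 0.81 and Sytl1 for the difference of differences 0.99. Normexp gave Cplx1 with coculture of Pla2g3+/+ cells 0.62, Rab3a for Lpar1 0.98 and Rab27a for the difference of differences -0.95, and median centring gave Rab3a 0.96. Quantile normalization moved the median of all genes with coculture from 0.13 to 0.00 in Pla2g3+/+ cells and from 0.12 to 0.02 under the Pla2g3-/- label, and normexp moved the former to -0.01; normexp moved it from -0.08 to 0.09 for the label in coculture and from -0.05 to 0.10 for the difference of coculture differences. The share of higher genes among those past 2-fold went with quantile normalization from 63.4 to 48.9% and from 61.0 to 50.3% for the 2 coculture comparisons, and from 82.6 to 46.0% for the wild-type pair. The number of arrays limits all of this: the spread between like cultures rests on the 1 pair of wild-type cocultures, and dim probes such as Cplx1, Doc2a and Unc13a lie near the background model.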
